A study of Mus musculus with 8 samples.

Results

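The genes described here are those of the hypoxia-inducible factor (HIF) pathway, namely its subunits, the oxygen-sensing enzymes that control it and a panel of its well-known targets outside glycolysis. They were measured by RNA sequencing in RAW264.7 cells, a mouse macrophage-like line transformed with Abelson leukaemia virus. The list held 35 gene symbols, and the deposited table held 33 of them among 10639 genes. P4ha2 and Vldlr were not analysed here. Each of the 4 groups had 2 libraries of wild-type RAW264.7 cells. The combination group received lipopolysaccharide (LPS) together with antibodies against CD36 for 12 h, and its own labels give no doses. The LPS group received 50 ng/mL for 12 h, and the anti-CD36 group received the antibodies at a dilution of 1 in 100 for 12 h. The last group was untreated. LPS is the bacterial outer-membrane component sensed through TLR4, and CD36 is a surface receptor that takes up fatty acids and oxidized lipoproteins. No group had a control antibody that binds something else, and all of them came from a single cell line.

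HIF is a dimer of an oxygen-regulated alpha subunit, such as HIF-1α encoded by Hif1a, and the constant partner ARNT. When oxygen is present, the prolyl hydroxylases encoded by Egln1, Egln2 and Egln3 mark the alpha subunit for capture by the VHL ubiquitin ligase, and the asparaginyl hydroxylase encoded by Hif1an blocks its binding to coactivators. When the alpha subunit escapes, the dimer binds a short DNA element with the core ACGTG or GCGTG and raises genes that shift cells away from mitochondrial respiration, and several of its own hydroxylases are among those genes. In macrophages, HIF-1α is known to be induced by LPS also when oxygen is plentiful. The libraries report RNA only. HIF-1α protein and oxygen were not measured in the data used here.

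The values are FPKM, which are fragment counts scaled to transcript length and sequencing depth. By the steps that single reads leave in the values of short RNAs, the libraries held 47900000 to 71700000 reads, which puts 3 reads in a transcript of 2000 bp at an FPKM of 0.0209 to 0.0313. These are the smallest totals that make the values whole. In 4 libraries a total 2.0 times as large, which keeps whole numbers whole, made the same share whole. In the other libraries a total 2.0 times as large lay above the range searched. The member value resting on the fewest reads, about 51, was one of Ankrd37. Replicates correlated across genes at 0.994 for the combination, 0.997 for LPS, 0.966 for anti-CD36 and 0.992 for untreated cells (Pearson's r of log2 values, where genes are not independent replicates). Mitochondrially encoded genes held 15.7% and 6.59% of the summed FPKM in the anti-CD36 libraries, and 3.28% to 6.62% in the other 6. Of 10 macrophage markers, 9 were in the table (all but Mertk), with summed levels of 3968 to 4500 FPKM in the combination, 4245 to 4314 with LPS, 4782 to 5406 with anti-CD36 and 3634 to 4224 in untreated cells. Of the markers of other cell types, none of 3 for T cells, 4 for fibroblasts, 3 for epithelium and 3 for endothelium was in the table. The single B cell marker in the table, Cd79b, was called higher with LPS, at 0.862 to 1.46 FPKM in the combination, 0.774 to 1.17 with LPS, 0.0292 to 0.268 with anti-CD36 and 0.0753 to 0.107 in untreated cells. The single granulocyte marker, Csf3r, reached at most 4.92 FPKM. Of the 9 macrophage markers, 4 were called higher with LPS, among them Adgre1 (2.59 on the log2 scale), and 2 lower, among them Csf1r (-1.57). The part of these markers in the results was not tested.

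Differences were tested with limma on log2(FPKM + 1) over the 10289 genes that reached 1 FPKM in 2 or more libraries, and calls were made where the p adjusted by Benjamini-Hochberg was under 0.05. All 33 members passed that filter. On the log2(FPKM + 1) scale, fold changes of weakly expressed genes come out too small. Nothing in the labels says that the libraries of a group came from separate cultures, and the spread behind each p-value may therefore be technical. Where a group's RNA level is lower, fewer cells expressing a gene and less RNA per cell cannot be told apart in bulk samples.

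The gene of the oxygen-regulated subunit and most genes of the enzymes that restrain it moved in opposite directions with LPS. Hif1a (chr12:73901375-73947530, plus strand, GRCm38) stood at 47.3 and 60.1 FPKM in the combination libraries, 71.8 and 75.6 with LPS, 31.9 and 27.03 with anti-CD36, and 32.5 and 39.5 in untreated cells. The LPS libraries were the highest, those of the combination came next, and neither overlapped the untreated libraries. Hif1a rose with LPS by 1.02 ± 0.16 on the log2 scale (SE, limma adjusted p = 0.0015), which was the only rise called among the 33 members. The combination libraries likewise exceeded untreated cells, by 0.56 ± 0.16 (limma adjusted p = 0.019), a call that was lost without combination replicate 2 (0.39, limma adjusted p = 0.13) and without untreated replicate 1 (0.42, limma adjusted p = 0.12). The combination lay below LPS by -0.46 ± 0.16, which was not called (limma adjusted p = 0.18). Arnt, the constant partner, stood at 11.6 and 12.8 FPKM in the combination, 13.4 and 14.1 with LPS, 10.6 and 8.37 with anti-CD36 and 12.1 and 13.1 in untreated cells, with no call in any comparison. With the length trend removed, Arnt was called higher than in untreated cells both in the combination (0.40, limma adjusted p = 0.017) and with LPS (0.40, limma adjusted p = 0.016).

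Of the prolyl hydroxylases, Egln1 was the most abundant in untreated cells and the one that fell furthest. Its level was 4.73 and 4.53 FPKM in the combination libraries, 7.12 and 9.04 with LPS, 29.9 and 35.4 with anti-CD36 and 34.5 and 36.8 in untreated cells. It fell by 2.02 ± 0.14 with LPS on the log2 scale (limma adjusted p = 3.4e-05), and the combination mean was 13.0% of the untreated mean. The further step below LPS, -0.68 ± 0.14, was not called (limma adjusted p = 0.059). Both combination libraries lay below both LPS libraries, which was so for 35.6% of all tested genes. Egln3, a HIF target itself, had 0.971 and 0.421 FPKM in the combination, 0.930 and 1.85 with LPS, 3.36 and 3.51 with anti-CD36 and 4.51 and 4.19 in untreated cells. It fell by 1.19 ± 0.21 with LPS (limma adjusted p = 0.0024), and the combination and LPS libraries overlapped.

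Egln2 took another course. It stood at 12.7 and 9.63 FPKM in the combination, 6.52 and 6.78 with LPS, 9.94 and 17.9 with anti-CD36 and 14.6 and 12.1 in untreated cells. It fell by 0.90 ± 0.25 with LPS (limma adjusted p = 0.018), while the combination libraries both lay above the LPS libraries and overlapped the untreated range. That difference of 0.66 ± 0.25 between the combination and LPS was not called (limma adjusted p = 0.21), and Egln2 was the only member of 33 whose combination libraries both exceeded both LPS libraries, which was so for 28.5% of all tested genes. Hif1an had 3.58 and 3.37 FPKM in the combination, 3.48 and 4.50 with LPS, 4.28 and 5.44 with anti-CD36 and 7.27 and 6.77 in untreated cells. It fell by 0.69 ± 0.14 with LPS (limma adjusted p = 0.005), so 4 of the 5 oxygen-sensing genes were called lower with LPS, beside 37.5% of all tested genes. The exception was Vhl, the substrate-binding part of the ubiquitin ligase, at 11.3 and 11.9 FPKM in the combination, 15.1 and 14.1 with LPS, 10.0 and 17.7 with anti-CD36 and 17.7 and 16.0 in untreated cells, with no call in any comparison.

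**Figure D1:**
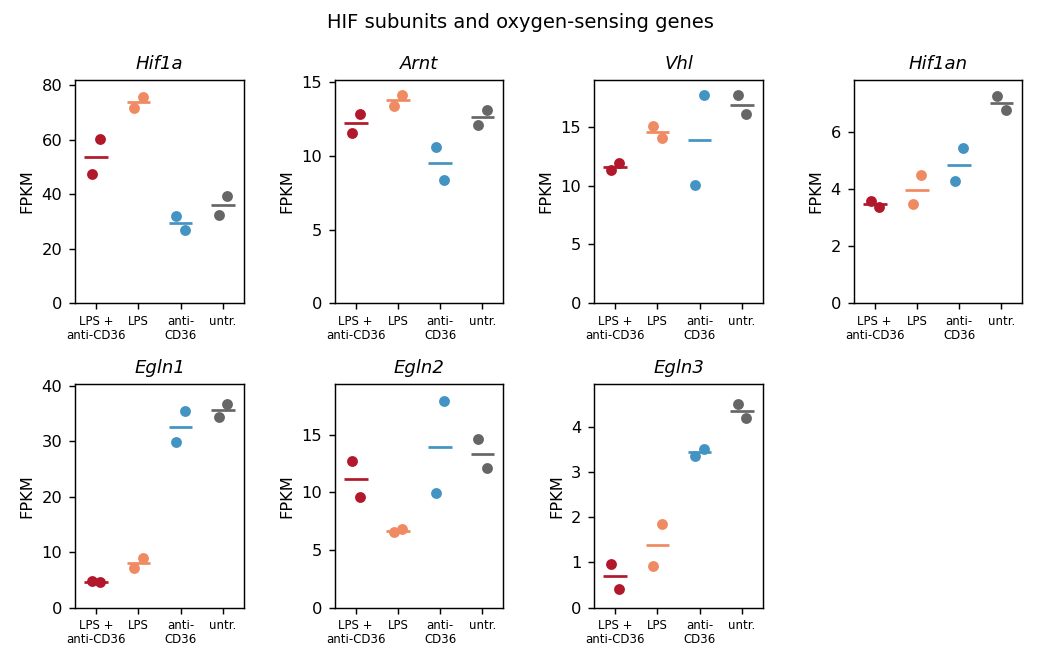
FPKM (vertical axis, linear, from 0) of the HIF subunit genes and the oxygen-sensing genes in each group (horizontal axis; untr. is untreated), with a point for each of the 2 libraries and a line at their mean. Hif1a is highest with LPS, Egln1 and Egln3 are low in both groups that received LPS, and Egln2 is lowest with LPS alone.

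Most of the targets fell with LPS. Of the 33 members, 19 were called lower with LPS than in untreated cells and 1, Hif1a, was called higher, against 37.5% of all tested genes called lower and 17.0% called higher. The median difference of the members was -0.69 on the log2 scale, beside -0.19 over all tested genes. With median-ratio size factors the median over all tested genes came to 0.01, and 26.4% of genes were called lower and 26.0% higher, while 19 members were again called lower and 1 higher. In the combination against untreated cells, 23 members were called lower and 1 higher, against backgrounds of 41.8% and 17.3%, and the members' median was -1.42 beside -0.23 over all tested genes. These comparisons share the untreated libraries.

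In the combination, a set of the targets was lower still than with LPS. In the combination against LPS, 9 of the 33 members were called lower and none higher, where 1.42% of all tested genes were called lower and 0.36% higher. At an unadjusted p under 0.05, 1 member, Egln2, was higher, against 5.87% of all tested genes. The 9 called lower were Ndrg1, Bnip3, Ero1a, Bnip3l, Ak4, Adm, Ccng2, Gbe1 and Pdk1. In that comparison 26 of 33 members had both combination libraries below both LPS libraries, which was so for 35.6% of all tested genes. The members' median was -0.49 on the log2 scale beside -0.02 over all tested genes. Of the 33 differences, 30 were below 0, against 53.3% over all tested genes. Ordered from the lowest difference among 10289 genes, Ndrg1 was at rank 2, Bnip3 at 7, Ero1a at 10, Bnip3l at 12, Ak4 at 19 and Adm at 20. The calls needed all 4 libraries of the 2 groups, since leaving out any one of them left no member called, while 22 were called lower in a fit on only these groups (14.4% of all genes). Differences in this comparison followed gene length (Spearman rho -0.475 across 10156 genes), and with the length trend removed 9 members were called lower, of which 8 were among the 9 above, with Egln1 in place of Adm.

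**Figure D2:**
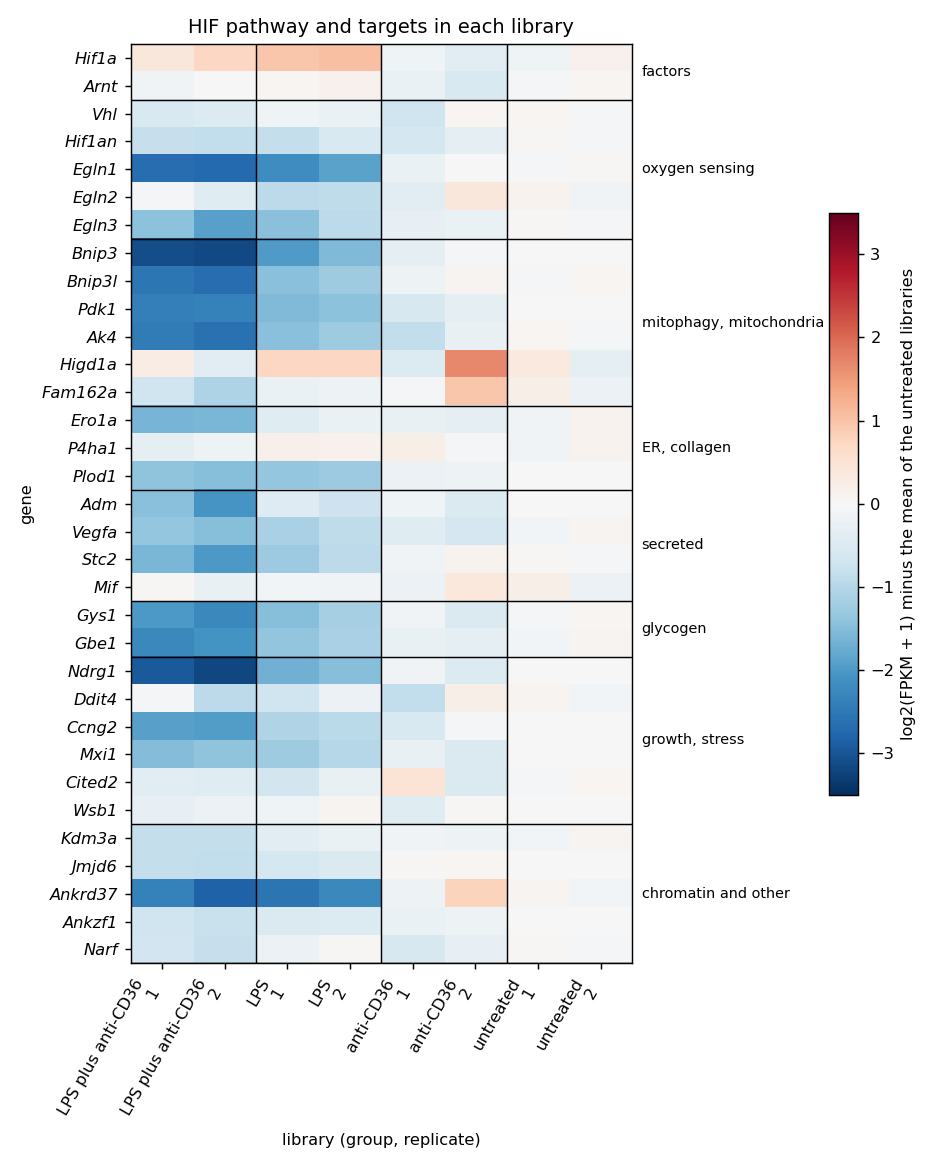
Level of each of the 33 members (rows, grouped by role) in each of the 8 libraries (columns), coloured by log2(FPKM + 1) minus the mean of the untreated libraries. Many rows, such as Bnip3 and Ndrg1, are darkest blue in the combination libraries, lighter in the LPS libraries and near white in the anti-CD36 and untreated libraries, and Hif1a is red in both groups that received LPS.

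**Figure D3:**
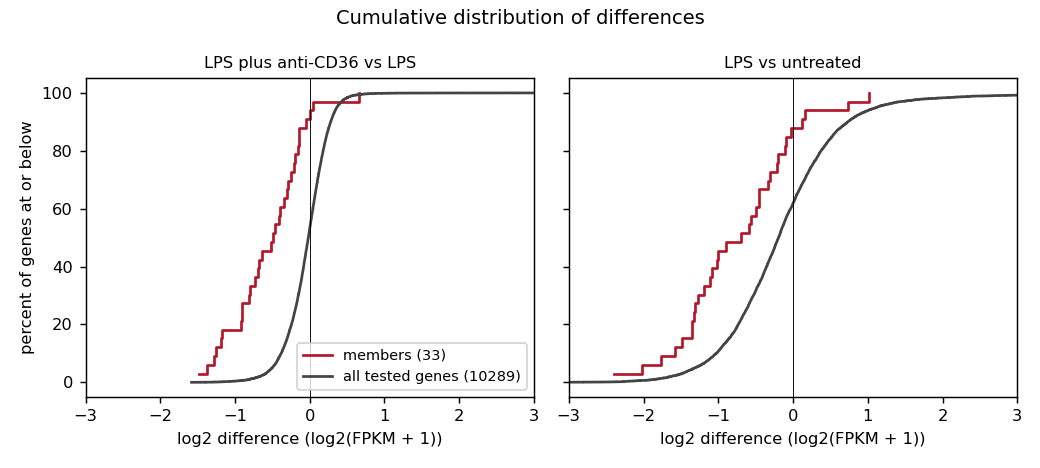
Cumulative percentage of genes (vertical axis) by log2 difference (horizontal axis) for the 33 members and for all 10289 tested genes, in the combination against LPS (left) and in LPS against untreated cells (right). The members' median is -0.49 beside -0.02 for all genes on the left, and -0.69 beside -0.19 on the right.

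Among genes of mitochondrial turnover and fuel use, the mitophagy receptors had the largest differences between the combination and LPS. Bnip3 (chr7:138890836-138909519, minus strand, GRCm38) stood at 14.6 and 14.0 FPKM in the combination libraries, 32.9 and 45.3 with LPS, 106 and 127 with anti-CD36 and 133 and 135 in untreated cells. All groups that received LPS were separate from those that did not, and the combination was separate from LPS. Bnip3 fell by 1.37 ± 0.17 between the combination and LPS (limma adjusted p = 0.02) and by 1.76 ± 0.17 between LPS and untreated cells (limma adjusted p = 0.00015). Its relative Bnip3l, also called Nix, had 8.87 and 7.95 FPKM in the combination, 19.9 and 23.2 with LPS, 49.3 and 60.5 with anti-CD36 and 53.8 and 58.9 in untreated cells. Its differences were -1.26 ± 0.14 for the combination against LPS (limma adjusted p = 0.017) and -1.35 ± 0.14 for LPS against untreated cells (limma adjusted p = 0.00022). The combination means of Bnip3 and Bnip3l were 10.7% and 14.9% of their untreated means.

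Pdk1, the kinase that inhibits pyruvate dehydrogenase and so limits the entry of pyruvate into the citric acid cycle, followed the same order. It had 4.65 and 4.75 FPKM in the combination, 9.24 and 10.1 with LPS, 19.1 and 23.2 with anti-CD36 and 28.3 and 29.4 in untreated cells, so the groups did not overlap. It was lower in the combination than with LPS by -0.90 ± 0.12 (limma adjusted p = 0.021), and lower with LPS than in untreated cells by -1.49 ± 0.12 (limma adjusted p = 6.8e-05). Ak4, an adenylate kinase of the mitochondrial matrix, had 9.66 and 8.49 FPKM in the combination, 20.3 and 23.7 with LPS, 31.0 and 47.8 with anti-CD36 and 60.3 and 54.5 in untreated cells. Its step between the combination and LPS was -1.19 ± 0.20 (limma adjusted p = 0.039), with LPS below untreated cells by -1.35 ± 0.20 (limma adjusted p = 0.0011). The former call was lost with a replicate block in the model (limma adjusted p = 0.073).

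The small mitochondrial proteins behaved less uniformly. Higd1a, which associates with the respiratory chain, was at 13.0 and 7.85 FPKM in the combination, 18.3 and 18.4 with LPS, 7.41 and 36.1 with anti-CD36 and 13.7 and 8.23 in untreated cells, and it was not called in any comparison. The anti-CD36 libraries lay further apart for Higd1a than any other pair of replicates did for this gene. Fam162a, a HIF-induced mitochondrial protein linked to cell death, had 104 and 80.0 FPKM in the combination, 146 and 150 with LPS, 166 and 334 with anti-CD36 and 196 and 149 in untreated cells. It was called only in the combination against untreated cells (-0.90 ± 0.32, limma adjusted p = 0.041). The same anti-CD36 libraries differed in their share of mitochondrially encoded RNA, and its part in these values was not tested.

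In the endoplasmic reticulum, Ero1a, the oxidase that supplies disulfide bonds to folding proteins (chr14:45283087-45318771, minus strand, GRCm38), was called lower in the combination than with LPS. Its level was 44.2 and 45.1 FPKM in the combination, 103 and 118 with LPS, 116 and 113 with anti-CD36 and 128 and 151 in untreated cells. The combination mean was 40.4% of the LPS mean, with a difference of -1.28 ± 0.13 (limma adjusted p = 0.012). LPS alone differed from untreated cells by -0.34 ± 0.13, which was not called (limma adjusted p = 0.063). The collagen-modifying enzymes differed from each other. The lysyl hydroxylase gene Plod1 fell by 1.31 ± 0.10 with LPS (limma adjusted p = 5e-05), with 8.30 and 7.79 FPKM in the combination, 8.65 and 9.33 with LPS, 20.3 and 20.8 with anti-CD36 and 23.4 and 24.1 in untreated cells. The combination differed from LPS by -0.14 ± 0.10 for Plod1 (limma adjusted p = 0.48). P4ha1, the catalytic subunit of collagen prolyl hydroxylase, averaged 46.3 ± 3.38 FPKM in the combination, 61.3 ± 0.505 with LPS, 57.4 ± 8.03 with anti-CD36 and 55.0 ± 6.01 in untreated cells (SD, n = 2 each), with no call.

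Among secreted products, Adm, the vasodilator peptide adrenomedullin, had 12.7 and 7.99 FPKM in the combination, 26.4 and 21.7 with LPS, 33.0 and 25.4 with anti-CD36 and 36.3 and 36.9 in untreated cells. The combination was separate from and below all other libraries, by -1.17 ± 0.22 against LPS (limma adjusted p = 0.048), a call that was lost under 14 of 19 alternatives. LPS alone lay below untreated cells by -0.59 ± 0.22, which was not called (limma adjusted p = 0.051). Vegfa, the endothelial growth factor, fell by 1.01 ± 0.14 with LPS (limma adjusted p = 0.00067) and had means of 9.30 ± 0.706 FPKM in the combination, 12.7 ± 1.60 with LPS, 18.5 ± 1.55 with anti-CD36 and 26.6 ± 2.86 in untreated cells (SD, n = 2 each). Stc2, the glycoprotein stanniocalcin, fell by 1.09 ± 0.18 with LPS (limma adjusted p = 0.0017), and its combination mean was 19.6% of the untreated mean. Mif, the macrophage migration inhibitory factor, was the most abundant member, at 1057 ± 165 FPKM in the combination, 1044 ± 17.9 with LPS, 1221 ± 337 with anti-CD36 and 1142 ± 243 in untreated cells, and was called in no comparison.

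Both glycogen genes fell. Gbe1, the branching enzyme, had 2.23 and 2.58 FPKM in the combination, 4.84 and 5.98 with LPS, 11.8 and 11.4 with anti-CD36 and 13.4 and 15.3 in untreated cells. It was called lower in the combination than with LPS (-0.91 ± 0.13, limma adjusted p = 0.025) and lower with LPS than in untreated cells (-1.27 ± 0.13, limma adjusted p = 0.00019). Gys1, the glycogen synthase of most tissues, had 11.0 and 9.18 FPKM in the combination, 16.3 and 20.8 with LPS, 43.8 and 33.4 with anti-CD36 and 45.6 and 49.5 in untreated cells. Its fall with LPS was called (-1.32 ± 0.17, limma adjusted p = 0.00063), and its further difference in the combination was not (-0.82 ± 0.17, limma adjusted p = 0.066).

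Of the genes of growth control and stress, Ndrg1 (chr15:66929318-66969640, minus strand, GRCm38), a hypoxia- and differentiation-induced protein, had the largest difference of any member between the combination and LPS. It had 5.75 and 4.77 FPKM in the combination, 15.4 and 17.7 with LPS, 46.7 and 36.5 with anti-CD36 and 50.6 and 52.0 in untreated cells. The 4 groups did not overlap, and the combination mean was 31.8% of the LPS mean and 10.3% of the untreated mean. The difference between the combination and LPS was -1.49 ± 0.15 (limma adjusted p = 0.012), and that between LPS and untreated cells was -1.58 ± 0.15 (limma adjusted p = 0.00015). Ccng2, an atypical cyclin linked to cell-cycle arrest, had 4.08 and 3.86 FPKM in the combination, 8.06 and 8.81 with LPS, 12.1 and 16.9 with anti-CD36 and 17.8 and 18.1 in untreated cells. It was lower in the combination than with LPS by -0.92 ± 0.15 (limma adjusted p = 0.039), and lower with LPS than in untreated cells by -1.01 ± 0.15 (limma adjusted p = 0.0012).

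The other genes of this class had no call between the combination and LPS. Mxi1, an antagonist of Myc, fell by 1.11 ± 0.13 with LPS (limma adjusted p = 0.0004), to a mean of 12.5 ± 1.63 FPKM with LPS against 28.2 ± 0.0688 in untreated cells (SD, n = 2 each). Ddit4, the inhibitor of mTORC1 signalling also called REDD1, overlapped between the combination (19.6 and 10.3 FPKM) and LPS (12.3 and 17.6 FPKM). Cited2, which competes with HIF-1α for its coactivator, was abundant at 252 ± 3.70 FPKM in the combination, 246 ± 47.7 with LPS, 351 ± 163 with anti-CD36 and 334 ± 22.4 in untreated cells (SD, n = 2 each). Neither gene, nor Wsb1, a ubiquitin ligase component, was called in any comparison.

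Among chromatin and other targets, Ankrd37 kept the smallest share of its untreated level in the groups that received LPS. It had 1.26 and 0.632 FPKM in the combination, 0.984 and 1.44 with LPS, 9.25 and 18.8 with anti-CD36 and 11.4 and 9.86 in untreated cells. The combination and LPS libraries overlapped, and the difference between LPS and untreated cells was -2.40 ± 0.30 (limma adjusted p = 0.00051). Exons of Ankrd37 overlap those of Lrp2bp and Ufsp2 on the other strand (GENCODE M21), and since strand use in the counting is not given in the sources used here, reads of these genes cannot be told apart. Exons of 11 members in all overlap those of another gene, among them Hif1a, Bnip3, Ndrg1 and Gys1, and values of Mif, Vhl and Bnip3l may share reads with named pseudogenes. The lysine demethylase Kdm3a was at 4.73 and 4.73 FPKM in the combination, 6.71 and 7.74 with LPS, 8.38 and 8.02 with anti-CD36 and 8.46 and 9.95 in untreated cells. It was called only in the combination against untreated cells (-0.83 ± 0.12, limma adjusted p = 0.00074), and so was Narf (-0.73 ± 0.14, limma adjusted p = 0.0027). The hydroxylase Jmjd6 (-0.56 ± 0.10, limma adjusted p = 0.0023) and Ankzf1, a factor of ribosome quality control (-0.49 ± 0.09, limma adjusted p = 0.0036), were called lower with LPS.

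**Figure D4:**
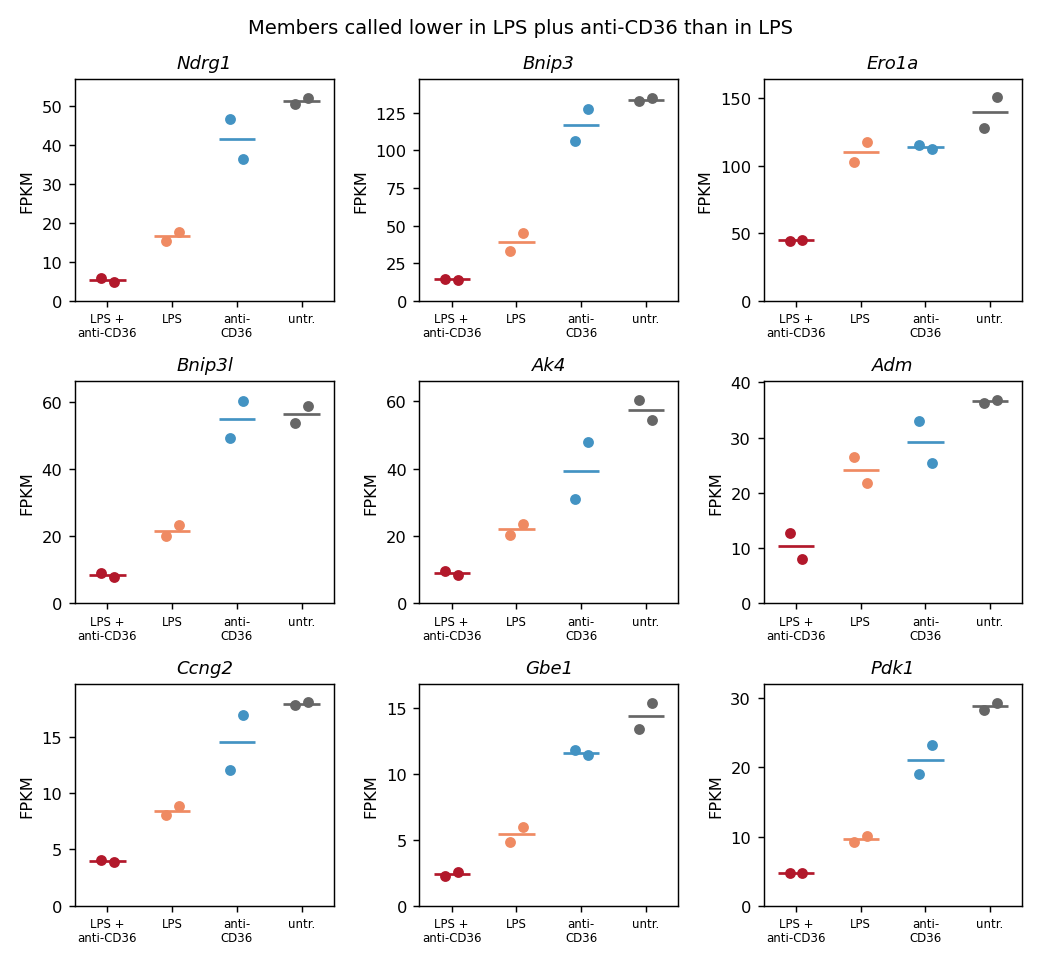
FPKM (vertical axis, linear, from 0) of the 9 members called lower in the combination than with LPS, in each group (horizontal axis; untr. is untreated), with a point for each of the 2 libraries and a line at their mean. In every panel the combination libraries lie below the LPS libraries, from 5.75 and 4.77 against 15.4 and 17.7 for Ndrg1 to 4.65 and 4.75 against 9.24 and 10.1 for Pdk1.

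By these calls the members fell into 5 classes. There were 7 called lower at both steps, with LPS and again in the combination against LPS (Ndrg1, Bnip3, Bnip3l, Ak4, Pdk1, Ccng2 and Gbe1). Another 12 were called lower with LPS only, 2 (Ero1a and Adm) in the combination against LPS only, and 1, Hif1a, higher with LPS only. The remaining 11 were called in neither. All tested genes were not sorted into these classes. Over all of them, 37.5% were called lower and 17.0% higher with LPS. In the combination against LPS, 1.42% were called lower and 0.36% higher. A call in one step and not in the other does not show that the steps differ. Ordered by their group means, 19 of the 33 members ran from untreated cells at the top through anti-CD36 and LPS to the combination at the bottom. The share of all tested genes in this order was not counted. Of all tested genes, 59.5% were lower with anti-CD36 and 61.9% lower with LPS than in untreated cells. In the combination, 53.3% were lower than with LPS.

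The DNA upstream of the members was read for the HIF core element. The 250 bases before the start site were taken from RefSeq (GRCm38.p6), which had a promoter for 31 of the 33 members tested (all but Ndrg1 and Bnip3l). Where a gene had several promoters there, such as Ak4 with 4, only the first listed was used. The shares over all promoters count each of them. The letters ACGTG and GCGTG were searched on both strands, and ACGTG can overlap itself on the opposite strand in CACGTG. At least 1 of the motifs was in 24 of 31 members (77.4%), against 59.4% of 8071 promoters of tested genes and 38.6% of all 32851 promoters in the table. ACGTG was in 45.2% of the members, 23.3% of tested genes and 16.6% of all promoters, and GCGTG in 64.5%, 47.8% and 28.2%. Most of the members were listed as known HIF targets, and a match is only a match of letters. Of the 8 members with the largest difference between the combination and LPS and a promoter in the table, 4 are printed. The promoters of Bnip3 and Ero1a are shown because they hold both motifs and both genes were called lower in the combination than with LPS. Those of Adm, with GCGTG alone, and Gbe1, with neither in this window, are shown beside them. Capitals mark the motifs on either strand.
Bnip3 (chr7:138909507-138909756, minus strand): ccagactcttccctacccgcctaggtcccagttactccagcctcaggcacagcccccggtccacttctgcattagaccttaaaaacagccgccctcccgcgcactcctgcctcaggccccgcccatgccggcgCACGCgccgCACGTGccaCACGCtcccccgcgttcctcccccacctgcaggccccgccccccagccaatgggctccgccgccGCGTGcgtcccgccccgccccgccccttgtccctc
Ero1a (chr14:45318573-45318822, minus strand): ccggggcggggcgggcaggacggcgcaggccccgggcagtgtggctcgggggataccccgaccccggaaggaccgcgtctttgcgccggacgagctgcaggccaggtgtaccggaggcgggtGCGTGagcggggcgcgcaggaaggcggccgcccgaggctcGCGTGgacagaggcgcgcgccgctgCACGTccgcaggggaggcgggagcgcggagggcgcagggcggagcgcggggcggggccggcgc
Adm (chr7:110627407-110627656, plus strand): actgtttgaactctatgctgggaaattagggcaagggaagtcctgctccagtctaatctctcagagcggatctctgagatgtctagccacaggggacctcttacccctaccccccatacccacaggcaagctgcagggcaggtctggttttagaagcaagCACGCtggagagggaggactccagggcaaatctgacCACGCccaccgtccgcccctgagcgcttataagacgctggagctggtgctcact
Gbe1 (chr16:70313699-70313948, plus strand): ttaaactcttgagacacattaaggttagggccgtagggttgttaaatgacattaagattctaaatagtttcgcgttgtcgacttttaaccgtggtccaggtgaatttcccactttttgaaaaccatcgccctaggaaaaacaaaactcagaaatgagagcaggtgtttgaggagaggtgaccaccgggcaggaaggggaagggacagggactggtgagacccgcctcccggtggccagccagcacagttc

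Counted to their leftmost base, the 5 matches of Bnip3 lay 117, 108, 107, 99 and 35 bases upstream of the RefSeq start, those at 108 and 107 being the overlapping pair. The 3 of Ero1a lay 128, 88 and 63 bases upstream of that start and the 2 of Adm 90 and 54 bases upstream. The gene bounds given above for Ero1a are those of GENCODE M21 and reach past its RefSeq start, to 45318771. The 3 matches of Ero1a therefore lie inside these bounds. Among the other members called lower in the combination, Ak4 had 2 matches, and Pdk1 and Ccng2 had 1 each, that of Ccng2 also inside its GENCODE bounds. Gbe1, which was called at both steps, had none in this window. The members with no call between the combination and LPS also held matches, such as Hif1a with 3.

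With the antibodies alone, none of the 33 members was called against untreated cells (limma), where 10.6% of all tested genes were called lower and 3.04% higher. At an unadjusted p under 0.05, 7 members were lower and 0 higher, against 22.8% of all tested genes lower and 8.43% higher. The 7 were Arnt, Hif1an, Ak4, Vegfa, Mxi1, Narf and Pdk1. Their differences ran no lower than -0.56 ± 0.20 for Ak4 (limma adjusted p = 0.1). For the mitophagy receptors the differences were -0.20 ± 0.17 for Bnip3 (limma adjusted p = 0.46) and -0.04 ± 0.14 for Bnip3l (limma adjusted p = 0.87). The members' median was -0.27 beside -0.08 over all tested genes, and its differences also followed gene length (rho -0.444).

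**Figure D5:**
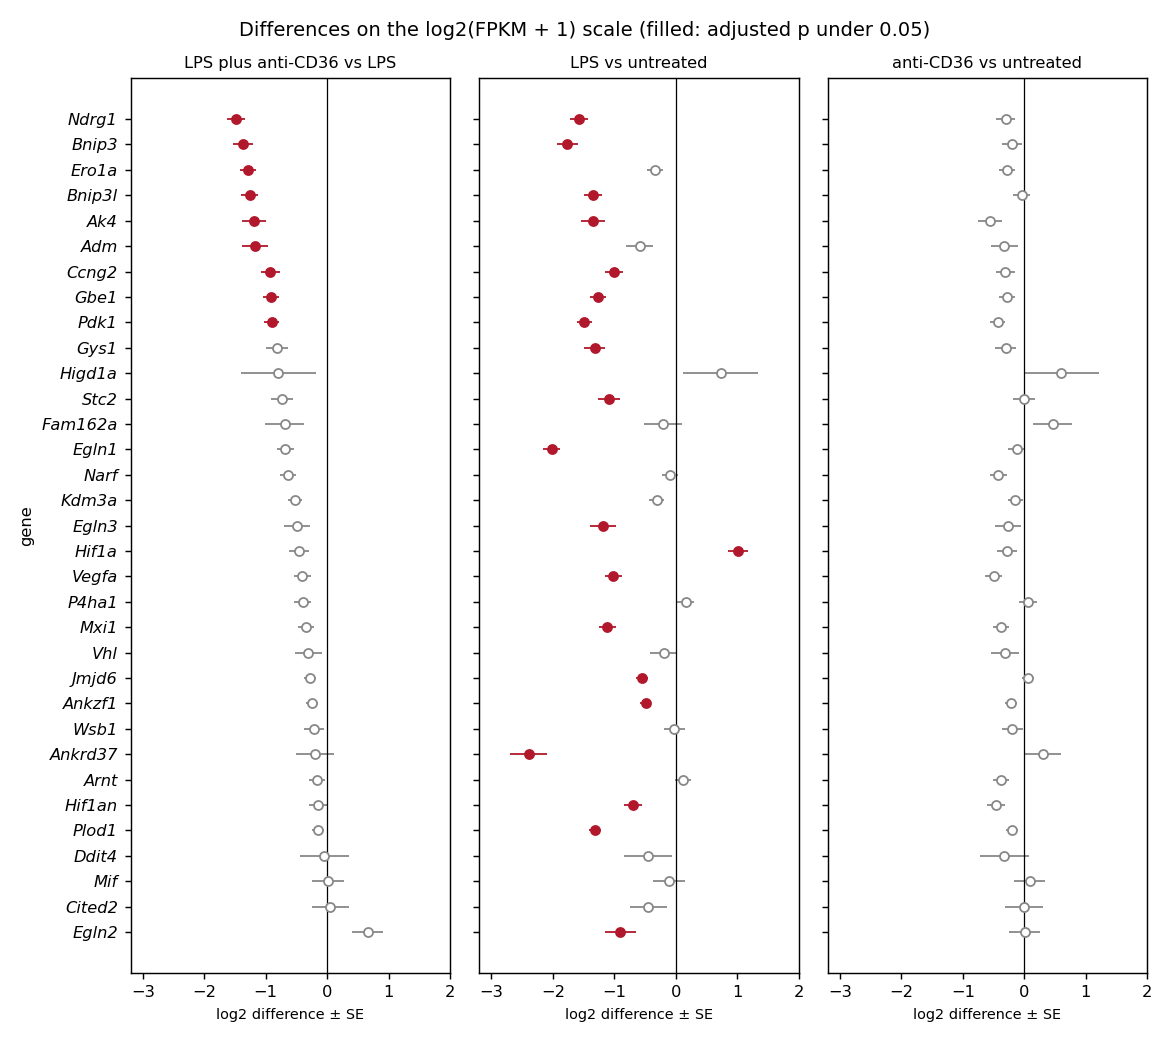
Log2 difference (horizontal axis) with its SE for each of the 33 members (vertical axis, ordered by the left panel) in the combination against LPS (left), LPS against untreated cells (middle) and anti-CD36 against untreated cells (right). Filled red points are called at an adjusted p under 0.05, which is so for 9 members on the left, 20 in the middle and none on the right.

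Whether the antibodies acted differently on these genes with and without LPS was tested as the interaction, which is the difference between the combination and anti-CD36 minus the difference between LPS and untreated cells. None of the 33 members was called (limma), and among all 10289 tested genes 1 was called positive (0.00972%) and none negative (0.0%). At an unadjusted p under 0.05, 12 members had a negative interaction and 0 a positive one, against 5.1% and 8.47% of all tested genes. Those of lowest p were Bnip3l (-1.22 ± 0.20, limma adjusted p = 0.19), Ndrg1 (-1.18 ± 0.21, limma adjusted p = 0.21), Ero1a (-0.999 ± 0.19, limma adjusted p = 0.21) and Bnip3 (-1.17 ± 0.24, limma adjusted p = 0.21). Without anti-CD36 replicate 1, 9 members were called with a negative interaction (2.45% of all tested genes), and without anti-CD36 replicate 2, 4 were (0.937%).

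Other genes of the pathway were read from lists of its machinery, its further known targets and the glycolytic enzymes. Of 20 further genes of the HIF machinery, 15 were tested, and Epas1, the gene of HIF-2α, was not analysed here. With LPS, 3 of the 15 rose and 5 fell, which are shares near those of all tested genes (17.0% and 37.5%). The rises included Eloc, an elongin of the VHL ligase, at 1.13 on the log2 scale, and Cops5, a signalosome subunit, at 0.85, and the falls included the coactivator Ep300 at -1.10 and Os9 at -0.88. None of the 15 was called in the combination against LPS, and Ep300 (-0.99) and Usp20 (-0.46) were the 2 called with anti-CD36 alone, where 10.6% of all tested genes were lower.

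Of 40 further HIF targets outside glycolysis, 30 were tested, and they moved both ways with LPS, where 17.0% of all tested genes rose and 37.5% fell. There 8 rose, among them Tfrc, the transferrin receptor (2.62), and 13 fell, led by Selenbp1 (-3.53) and Rcor2 (-2.21). In the combination against LPS, 4 of the 30 were called lower and none higher, beside 1.42% and 0.36% of all tested genes. They were Plod2, a lysyl hydroxylase (-0.999), the carbonic anhydrase Car12 (-0.89), the demethylase Kdm4b (-0.84) and Pfkfb3, the regulator of glycolytic flux (-0.77). Plod2 had a mean of 1.89 FPKM in the combination, 4.77 with LPS, 3.12 with anti-CD36 and 4.23 in untreated cells. With anti-CD36 alone 5 fell and 1 rose, beside 10.6% and 3.04% of all tested genes, with Nos2 at -0.90 and the metallothionein Mt1 at 0.66. Of 16 glycolytic enzymes, 9 fell and 1 rose with LPS, beside 37.5% and 17.0% of all tested genes, with Pfkm at -1.60 and Pfkl at -1.45. In the combination against LPS, Pfkp was the 1 of 16 called (-0.72), beside 1.42% of all tested genes called lower.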

How the data were processed

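RNA was extracted with Trizol and made into Illumina libraries, per the labels' protocols. The sample descriptions also name a further library platform beside standard Illumina libraries. The values, a single one per gene and library, were treated as bulk RNA sequencing of mouse cells. The authors deposited 1 table of FPKM values with a column for each of the 8 libraries. Per the submitters' processing notes, the tools included HISAT2 2.0.5, with mm10 and hg38 listed as builds. How genes were counted, from which annotation and with which strand setting, is not given in the sources used here. No value was 0. Depth was recovered by finding, for each library, the read total at which FPKM multiplied by length came out whole (within 0.02) for RNAs of up to 350 bp in GENCODE M21 (GRCm38, the assembly of mm10).

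Values were tested with limma 3.58.1 in R 4.3.3 as log2(FPKM + 1), with 4 group means fitted to all 8 libraries, which share 1 spread (4 residual degrees of freedom and 3.46 from the prior, with a trend on mean level), after the filter of 1 FPKM in 2 or more libraries. P-values were adjusted by Benjamini-Hochberg over all 10289 genes, and the procedure was tested on simulated data. The members, the lists and the rule for named genes were chosen with earlier results of these data known. That rule gives per-library values for the HIF subunits, the oxygen-sensing genes and each member called in the combination against LPS, and up to 4 called genes of each further list. Other members described by library were chosen after their values were seen. The alternatives were pseudocounts, filters, scalings, spread estimates, a replicate block, removal of the length trend and leaving out each library.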

Additional observations from a re-analysis of the deposited data

How the results depend on the processing

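The count of 9 members called lower in the combination than with LPS was 8 or 9 under 9 alternatives (size factors by median ratio, quantile normalization, no trend, removal of the length trend, no mitochondrial genes, no filter, a filter on the mean at 5 FPKM, and a pseudocount of 5 or 0.1). When the model held just the 2 groups it was 22, with 1 called higher, and without each library in turn it ranged from 0 to 16 lower and 0 to 1 higher. It was 0 without either combination library or either LPS library (0.0% of all tested genes), 4 without either untreated library (0.352%) and 16 without either anti-CD36 library (9.6% and 9.73%). The differences of the 9 members kept their sign under all 19 alternatives, from -1.64 to -1.07 for Ndrg1 and from -1.13 to -0.49 for Gbe1. Their calls were lost under 14 alternatives for Adm, 8 for Ccng2, 7 for Ak4 and 6 for each of Pdk1 and Gbe1. For Ndrg1, Bnip3, Bnip3l and Ero1a the call was lost under 4 each. For LPS against untreated cells, 17 to 24 members were called lower in fits on all libraries or on only the groups compared, where 26.4% to 44.9% of all tested genes were. Of those called higher there were 2 in the fit on only the groups compared and 3 with the length trend removed, namely Hif1a, Arnt and P4ha1. These fits called 23.3% and 27.3% of all tested genes higher. For the combination against untreated cells, 20 to 25 were called lower in fits of the same kinds, where 27.2% to 46.2% of all tested genes were. With the length trend removed 2 were called higher, beside 27.6% of all tested genes. There Arnt reversed from -0.04 to 0.40 and was called (limma adjusted p = 0.017), and the cause was not tested. For anti-CD36 alone, 2 members (Vegfa and Pdk1) were called lower with a pseudocount of 5 and 1 (Pdk1) after quantile normalization. In these fits 12.4% and 6.21% of all tested genes were called lower, so these calls are not results about the members. Without each library 0 to 7 were called lower and 0 to 3 higher, where the fits with 7 and with 3 called 20.0% and 14.5% of all tested genes, so these are not results about the members. For the interaction 0 to 9 were called lower and 0 to 1 higher, with 2.45% of all tested genes lower where 9 were and 2.09% higher where 1 was. The labels do not say whether same-numbered libraries were paired. Their deviations from the group means correlated over genes at -0.645 to 0.53 between groups, which cannot decide this with 2 libraries a group. With the replicate block 6 members were called lower in the combination than with LPS, 20 with LPS and 22 in the combination against untreated cells. The shares of all tested genes called lower there were 0.35%, 35.6% and 40.4%. Where a fit leaves 1 library in a group, that library is assumed to vary like the others. The least covered member, Ankrd37, rested on about 51 reads in its lowest library, and each group had 2 libraries.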
